A study of Homo sapiens with 3 samples.

Results

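Isolated Idax peaks were binding regions that stood alone in long stretches of the genome. They were taken from the peak list of Myc-tagged wild-type Idax as autosomal peaks with no other peak of that list within 250 kb on either side. The rule was met by 727 of 16528 autosomal peaks, or 4.4% (exact Clopper-Pearson 95% interval 4.09 to 4.72). The other 15801 autosomal peaks formed the comparison class, and the whole list, sex chromosomes included, held 17089 peaks.

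The list came from chromatin immunoprecipitation followed by sequencing in HEK293T, a transformed human embryonic kidney line. Stable lines carried wild-type Myc-Idax, the DNA-binding mutant Myc-IdaxDBM or an empty vector, and an anti-c-Myc affinity gel was used in all 3. Both tagged constructs were introduced by transfection, so the lists describe tagged, introduced protein. The study's design text gives 2 replicates per condition, but 1 list for each tagged construct was analysed, each called over the empty-vector cells, and the values below therefore have no replicate error. Positions are on hg19, the build that the submitters' processing notes name.

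Idax (CXXC4) has a CXXC zinc finger, a small domain that binds DNA containing unmethylated CpG. In mammalian genomes such DNA is concentrated in CpG islands, short CpG-rich stretches that mark many gene promoters and also occur away from known promoters. Because promoters gather in gene-dense regions, a list of sites bound by such a protein is usually crowded in some regions and thin in others. The isolated peaks are those of the thin regions. Genes and sequence under the peaks were not analysed here.

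The members were chosen by the distances between peaks in the deposited list, and these distances are given only as a description. The distance from an isolated peak to its nearest neighbour had a median of 378 kb (quartiles 303 and 590 kb), whereas for the other autosomal peaks the median was 20.7 kb. A nearest neighbour more than 500 kb away was found for 232 isolated peaks, and more than 1 Mb away for 69. The distance to the neighbour on the emptier side had a median of 841 kb. The larger gap was a median 1.78 times the smaller over the 721 isolated peaks that had a neighbour on both sides. This ratio cannot fall below 1, and no reference value was computed for it. The 6 remaining isolated peaks were the first or last of their chromosome.

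By the rule, every isolated peak borders long gaps, so the counts of gaps beside isolated peaks are a description. Of 16506 gaps between neighbouring autosomal peaks, 2351 (14.2%) were longer than 250 kb, and these made up 69.2% of all gap length. An isolated peak stood on at least 1 side of 1210 of them (51.5% by number), and on both sides of 238. The share of gap length beside isolated peaks was not computed. Unassembled sequence such as centromeres was not masked, so some of these gaps cannot hold a peak.

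The 10 isolated peaks of highest score included some of the strongest sites in the list. The score is the authors' deposited value for each peak, has the form of the MACS score, which rises as the p-value falls, and ran from 50.01 to 3100 over the list. The value 3100 may be a ceiling of the score; it was held by 1 peak, which was not isolated, and the next highest score was 2552.23. The strongest isolated peak lay at chr9:82184754-82189111, was 4358 bp wide, scored 2407.3 and ranked 4 among all autosomal peaks. Its neighbours were 311 kb and 1796 kb away. A second peak of the same stretch, at chr9:84301800-84305750, scored 1611.65 over 3951 bp and ranked 57. These 2 strong peaks belonged to a run of 4 consecutive isolated peaks, whose other members scored 171.37 (at chr9:81871150-81873474) and 62.77 (at chr9:83985491-83986144). Strong and weak sites therefore stood next to each other in this sparse stretch.

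Chromosome 3 held 5 of the 10 strongest isolated peaks, and 55 of all 727 isolated peaks (7.57%). The count among the 10 was noticed after the fact and was not tested. The peak at chr3:143689506-143692648 scored 1818.64 (rank 25), was 3143 bp wide and had 850 kb and 2185 kb of empty sequence on its sides. The peak at chr3:8542802-8543917 reached a score of 1550.12 (rank 67) at a width of only 1116 bp, close to the median of its class. The other 3 lay at chr3:31573065-31575589 (score 1546.78), chr3:119812486-119814943 (score 1355.06) and chr3:112279732-112281716 (score 1241.8). The remaining members of the top 10 were on chromosomes 6 and 1. They lay at chr6:133561329-133564891 (score 1934.86, rank 17), chr1:113932198-113934470 (score 1845.3, rank 22) and chr1:82265600-82269566 (score 1227.89, rank 171). Of these 10 peaks, 8 were at least 2000 bp wide, against 8.65% of all autosomal peaks, though width and score rise together in the whole list.

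At the other end of the class, the 5 weakest isolated peaks scored 50.01 to 50.78 and were at most 906 bp wide. The lowest of them, at chr9:18254986-18255548, had the minimum score of the whole list. The narrowest isolated peak, at chr8:7922838-7923213, was 376 bp wide with a score of 51.24. The next narrowest were 467 bp (chr12:89413287-89413753, score 51) and 468 bp (chr3:74316725-74317192, score 62.57). The class thus ran from the caller's floor to nearly the top of the list.

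The widest isolated peak did not follow the general relation of width and score. It spanned 7718 bp at chr4:50431-58148, was the first peak of chromosome 4 and scored 111.62, the lowest of the 86 isolated peaks that were 2000 bp or wider. The next widest, at chr5:115907636-115912274, spanned 4639 bp and scored 1141.53. Across the 727 isolated peaks, width and score had a Spearman rho of 0.81, against 0.77 across the other autosomal peaks. Width and score come from the same reads, and peaks of 1 list are not independent replicates.

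**Figure D1:**
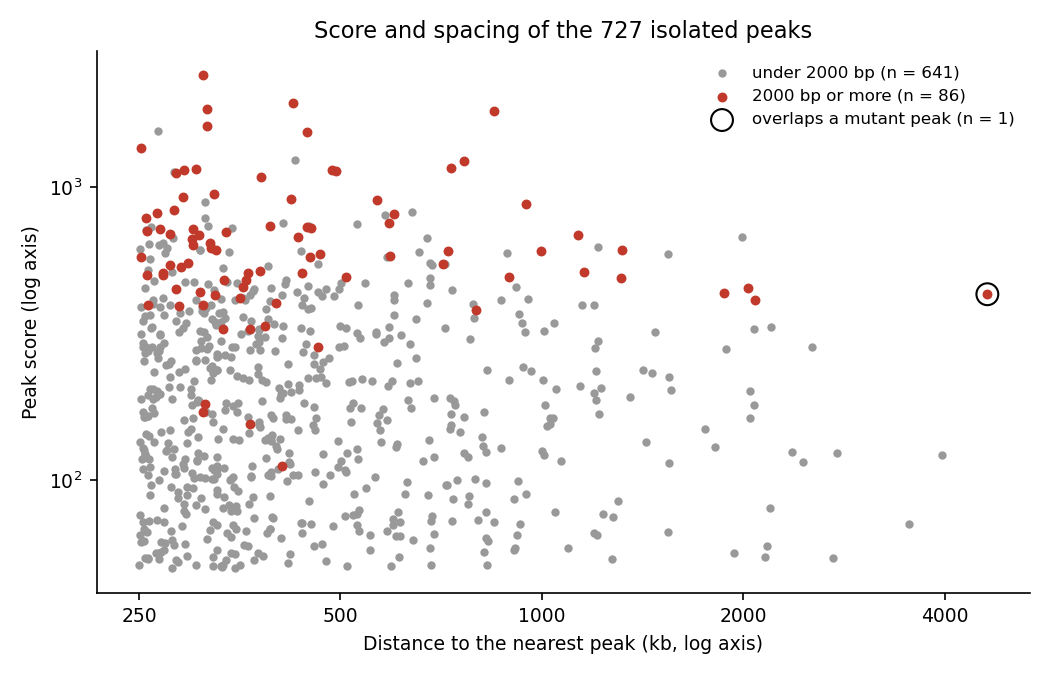
Score of each of the 727 isolated peaks against the distance to its nearest neighbour, both on log axes. Red points are the 86 peaks at least 2000 bp wide, grey points the others, and the circle marks the 1 peak that overlaps a mutant peak. Peaks of high and low score are found at all distances up to about 1 Mb, and the circled peak, with a score of 430.92, is the farthest from any neighbour.

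Within the class, greater isolation did not go along with a clear change of score. Over the 727 peaks the Spearman rho of score with the distance to the nearest neighbour was -0.04, and that of width with this distance was -0.03. The most isolated peak, at chr13:67803641-67806111, stood 4632 kb from its nearest neighbour, was 2471 bp wide and scored 430.92. The next 4 were weaker. They scored 122.03 (chr5:27472044-27473430), 70.59 (chr13:84455937-84457067), 123.23 (chr10:108923691-108924750) and 54 (chr18:39534750-39535379), with nearest neighbours 3964, 3538, 2758 and 2723 kb away.

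Isolated peaks were of almost the same median width as the rest and had a somewhat lower median score. The median score was 195.63 (quartiles 102.91 and 376.93) for the isolated peaks and 226.46 (quartiles 110.45 and 412.29) for the other autosomal peaks, a difference of -30.8, or 86.4% of the other median. The quartiles overlapped over most of their range. The median width was 1113 bp (quartiles 796 and 1549 bp) for isolated and 1118 bp (quartiles 829 and 1503 bp) for other peaks, a difference of -5 bp. No test is given for these differences, since the peaks come from 1 list and are not replicates. Both depended on the distance chosen. With 100 kb in place of 250 kb, 2616 peaks were isolated and their medians were higher than those of the rest, by 19.06 in score and 65.5 bp in width, whereas with 500 kb 232 peaks were isolated and their medians differed by -50.16 and -50 bp.

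Among the isolated peaks, 155 (21.3%, 95% interval 18.4 to 24.5) had a score at or above the upper quartile of the autosomal list (410.87), against 25% of all autosomal peaks. Scores under 100 were held by 170 isolated peaks (23.4%, 20.4 to 26.6), against 21.8% of all autosomal peaks. The intervals are exact, cover counting error only and treat peaks as independent. Isolated peaks were 4.4% of the autosomal list. By deciles of the score, their share was 3.39% (2.57 to 4.38) in the highest decile and 5.63% (4.56 to 6.85) in the third lowest, where it peaked. These 2 deciles are the extremes, picked after their values were seen. The share was 4.96% in the lowest decile and 4.54% in the second lowest, so it did not rise steadily toward weak scores. Isolated peaks numbered 1 among the 10 strongest autosomal peaks, 7 among the 100 strongest, 31 among the 1000 strongest (3.1%) and 50 among the 1000 weakest (5%, near the 4.4% of the whole list). The share at the very top rests on few peaks.

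The spread of widths was larger among isolated peaks than among the other autosomal peaks as a whole, although the medians were alike. Widths of 2000 bp or more were found for 86 isolated peaks (11.8%, 95% interval 9.57 to 14.4), against 8.65% of all autosomal peaks and 8.51% (8.08 to 8.95) of the other class. The share of wide peaks was 10.3% (9.46 to 11.3) among other peaks with a nearest neighbour at 50 to 250 kb, an interval overlapping the isolated one. Widths under 600 bp were found for 40 isolated peaks (5.50%, 3.96 to 7.42), against 4.79% of all autosomal peaks and 3.83% (3.29 to 4.43) at 50 to 250 kb. The 90th percentile of width was 2122 bp for isolated and 1931 bp for other peaks, while the lower quartile was 796 against 829 bp. Wide isolated peaks were as strong as wide peaks elsewhere, with a median score of 605 among the isolated and 604 among the other peaks of 2000 bp or more.

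**Figure D2:**
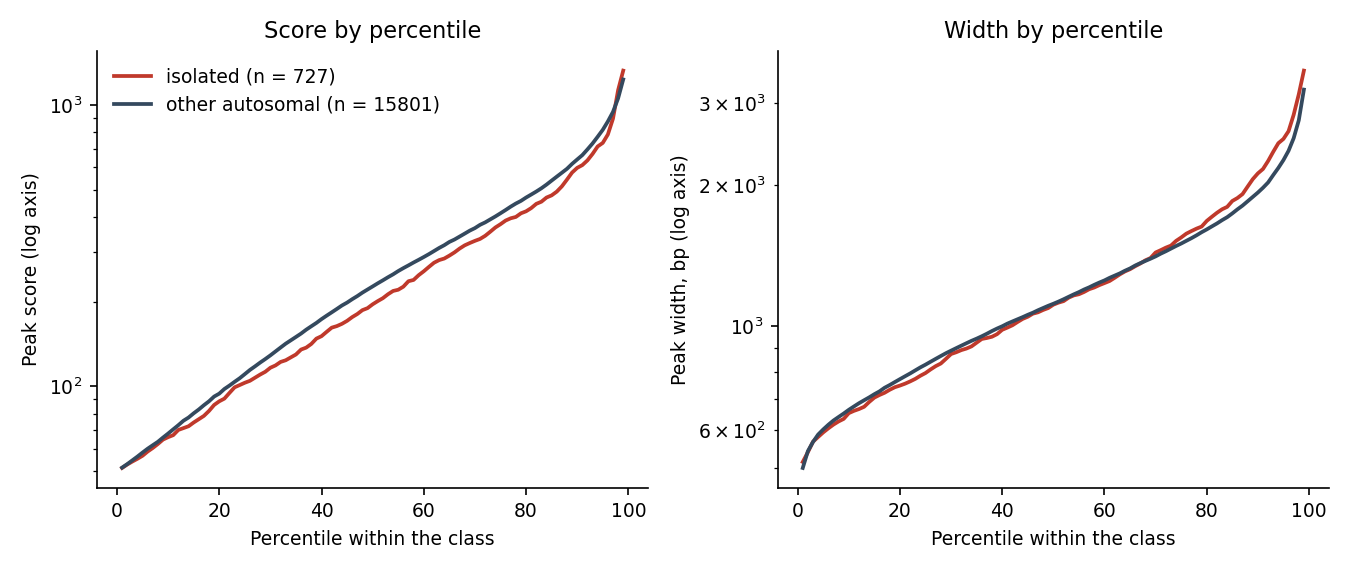
Score (left) and width in bp (right) at each percentile of the isolated class (red, n = 727) and of the other autosomal peaks (blue, n = 15801), on log axes. The score of the isolated class runs below the other over the middle percentiles (median 195.63 against 226.46), and the width curves cross above the median, with isolated peaks wider at the top (90th percentile 2122 against 1931 bp).

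Among peaks of like width, isolated peaks had the lower median score in 9 of 10 width deciles. The difference was small in the 2 narrowest deciles (-1.45 and -2.84), where the medians of both classes were between 64.25 and 89.41. It was widest between 1255 and 1411 bp, where 60 isolated peaks had a median score of 236.65 and the other peaks 315.22, and between 1412 and 1613 bp, with 301.86 over 62 isolated peaks against 376.12. In the widest decile, from 1940 bp, the medians were 590.24 over 93 isolated peaks and 587.37. That decile also held the largest share of isolated peaks, 5.64% (4.58 to 6.87). The median of the 10 differences was -15.7, against -30.8 without regard to width.

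**Figure D3:**
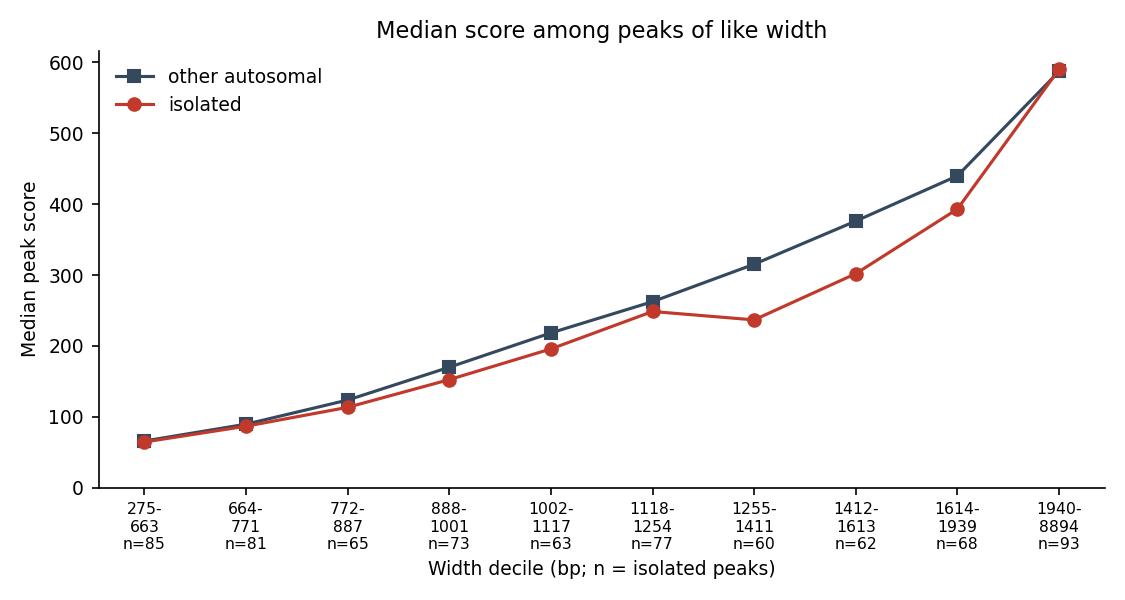
Median peak score of isolated (red) and other autosomal (blue) peaks in deciles of peak width, with the width range in bp and the number of isolated peaks under each decile. The isolated medians lie below the others in 9 of 10 deciles, most clearly from 1255 to 1613 bp, and meet them in the widest decile (590.24 against 587.37).

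The other class was itself mixed, and score did not change in a single direction with distance. Peaks with a neighbour within 1 kb had the lowest median score, 150 (quartiles 83.8 and 297), and the lowest median width, 961 bp. Median score was higher at 5 to 10 kb (237), and highest at 50 to 100 kb (260, n = 2632) and 100 to 250 kb (258, n = 1889). It was lower at 250 to 500 kb (208, n = 495), at 500 to 1000 kb (171, n = 163) and beyond 1000 kb (188, n = 69). Median width likewise was highest at 100 to 250 kb (1204 bp) and was 1129, 1056 and 1084 bp in the 3 isolated distance ranges. Isolated peaks thus lay below peaks of moderate spacing in score and above peaks with a neighbour within 1 kb. They did not lie above all closely spaced peaks, since the median score at 1 to 5 kb was 189 (n = 1564). Against the 4521 other peaks whose nearest neighbour was 50 to 250 kb away (median score 259.01, median width 1190 bp), the isolated class was lower in both.

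**Figure D4:**
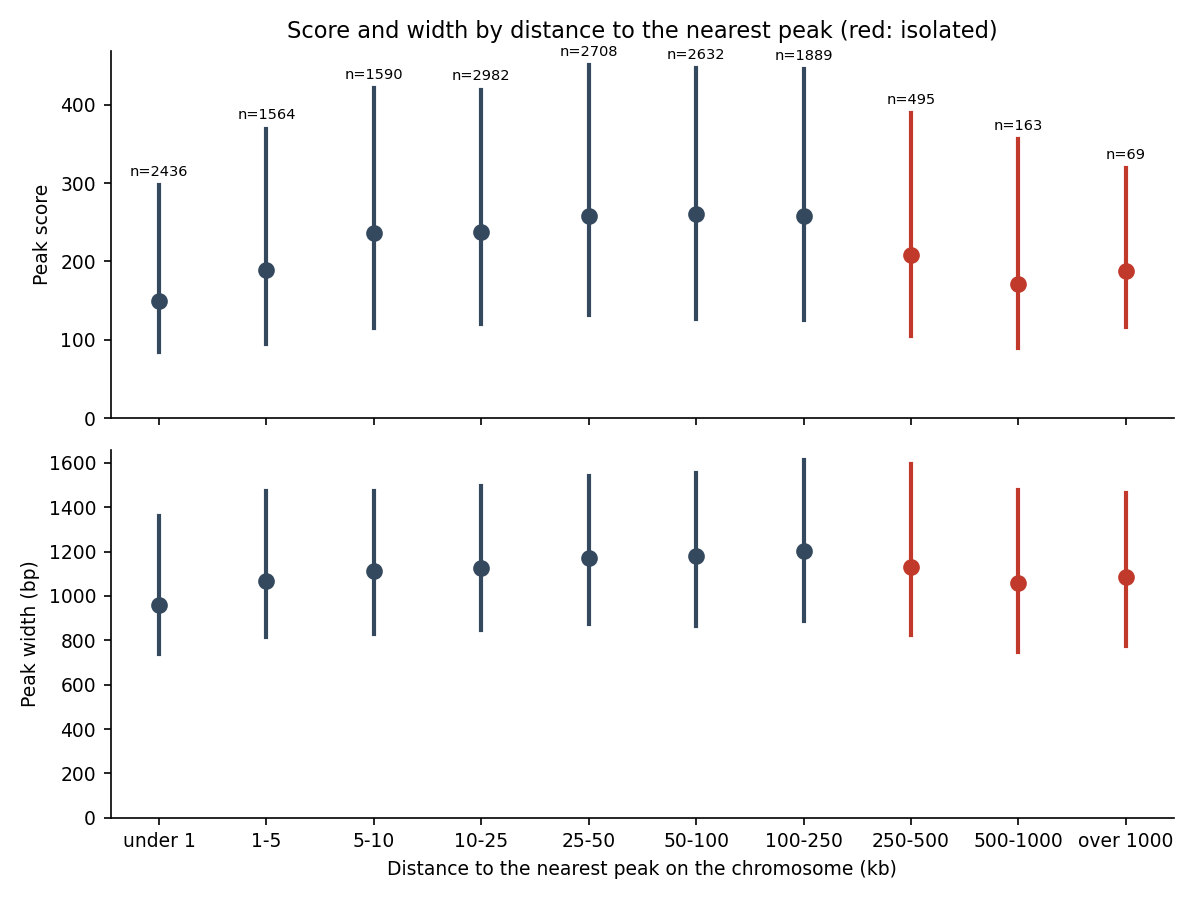
Median (points) and quartiles (lines) of peak score and of peak width in bp, by distance to the nearest peak in kb, with the number of peaks in each range. Blue marks ranges of the other class and red the 3 isolated ranges; the median score is lowest within 1 kb (150), highest from 25 to 250 kb (258 to 260) and between 171 and 208 in the isolated ranges.

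The limit of 250 kb did not mark a step. In steps of 50 kb the median score was 278 at 100 to 150 kb, 246 at 150 to 200 kb, 224 at 200 to 250 kb and 196 at 250 to 300 kb, and then 237 at 300 to 350 kb (n = 141). The 109 isolated peaks with a nearest neighbour at 250 to 275 kb had a median score of 196.02, and the 150 other peaks with one at 225 to 250 kb had 195.07. The 2 isolated peaks nearest to the limit were at chr9:126440411-126441105 (nearest neighbour 250.4 kb, score 51.23) and chr15:98195966-98196639 (250.6 kb, score 65.03). Just outside it lay a pair of neighbours on chromosome 5, separated by 249.9 kb, at chr5:78280046-78281405 (score 234.79) and chr5:78531328-78532698 (score 346.96).

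Peaks with a long gap on 1 side only, 3292 in number, lay closer in median score to the crowded peaks than to the isolated class. Their median score was 222.18 and their median width 1113 bp. The 12509 peaks with a neighbour within 250 kb on both sides had a median score of 227.92. When peaks were joined into groups wherever the gap was at most 250 kb, the list formed 2373 groups, of which the 727 isolated peaks were 30.6%. The median score was 216.61 over the 760 peaks in groups of 2 and 227.99 over the 795 in groups of 3. It was 240.93 over the 1349 in groups of 4 to 5, and 221.33 over the 7493 in groups of 21 or more. The single peaks had the lowest median of all 7 size ranges, and the largest groups did not have the highest.

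The share of isolated peaks differed widely between chromosomes. It was highest on chromosome 13, with 32 of 293 peaks (10.9%, 95% interval 7.59 to 15.1), chromosome 4, with 60 of 606 (9.90%, 7.64 to 12.6), and chromosome 18, with 20 of 219 (9.13%, 5.67 to 13.8). It was lowest on chromosome 19, with 5 of 1259 (0.397%, 0.129 to 0.924). Chromosomes 22 (0.875%), 16 (0.959%), 17 (1.02%) and 20 (1.61%) followed. This order follows the density of peaks, which the rule itself contains, with a Spearman rho of -0.96 over the 22 autosomes. By number, chromosome 2 held most isolated peaks (72), and chromosomes 5 and 6 held 61 each.

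Per length, the autosomes fell into a pair of ranges, grouped after their values were seen. Chromosomes 16, 17, 19, 20 and 22 held 7.77 to 13.6 isolated peaks per 100 Mb of span, and the other 17 autosomes 19.4 to 35.7. The span includes unassembled sequence, which was not masked, so values per length are not corrected for it. Chromosomes 15 and 20 had a similar density of all peaks (6.72 and 6.94 per Mb) but 25.2 and 11.2 isolated peaks per 100 Mb. Chromosome 6, with 1023 peaks in all, had the most isolated peaks per length (35.7 per 100 Mb). Chromosomes 15 and 20 thus differed in isolated peaks per length at like overall density, over only 20 and 7 isolated peaks. That pair was picked after its values were seen. Chromosomes 10, 11, 12 and 14 also had like density (6.30 to 6.38 per Mb) but similar values, 19.4 to 23.2 isolated peaks per 100 Mb.

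On the densest chromosome, 19, the isolated peaks fell within a single interval of the span. All 5 lay between 21949787 and 29704508, and 4 of them were consecutive, at chr19:23869344-23870306 (score 137.83), chr19:24216211-24216909 (score 102.79), chr19:28283869-28285616 (score 237.51) and chr19:29703601-29704508 (score 321.3). The gap between the second and the third was 4067 kb. The remaining peak was at chr19:21949787-21950758 (score 96.2).

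Isolated peaks were less common near the ends of the covered spans. Of the 727, 35 (4.81%, 95% interval 3.38 to 6.63) lay within 5 Mb of the first or last peak of their chromosome, against 2579 of the other 15801 (16.3%, 15.7 to 16.9). Position and density are tied to the rule, so this too is a description.

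The lower score of isolated peaks was found within most chromosomes. Their median score was below that of the other peaks on 18 of 22 autosomes and above it on 4 (chromosomes 3, 15, 17 and 20). Among the 15 autosomes with 20 or more isolated peaks it was lower on 13. The differences ran from -163 on chromosome 21 (110.87 over 10 isolated peaks against 274.12) to 67.5 on chromosome 20 (263.31 over 7 against 195.83), both with few isolated peaks. On chromosome 13 the medians were 170.22 and 237.82, on chromosome 4 they were 187.93 and 242, and on chromosome 2, with the most isolated peaks, 238.38 and 239.65. Median width was lower for isolated peaks on 14 autosomes, higher on 7 and equal on 1. The copy number of each chromosome in HEK293T, a line with an abnormal karyotype, can change the score and was not taken into account.

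**Figure D5:**
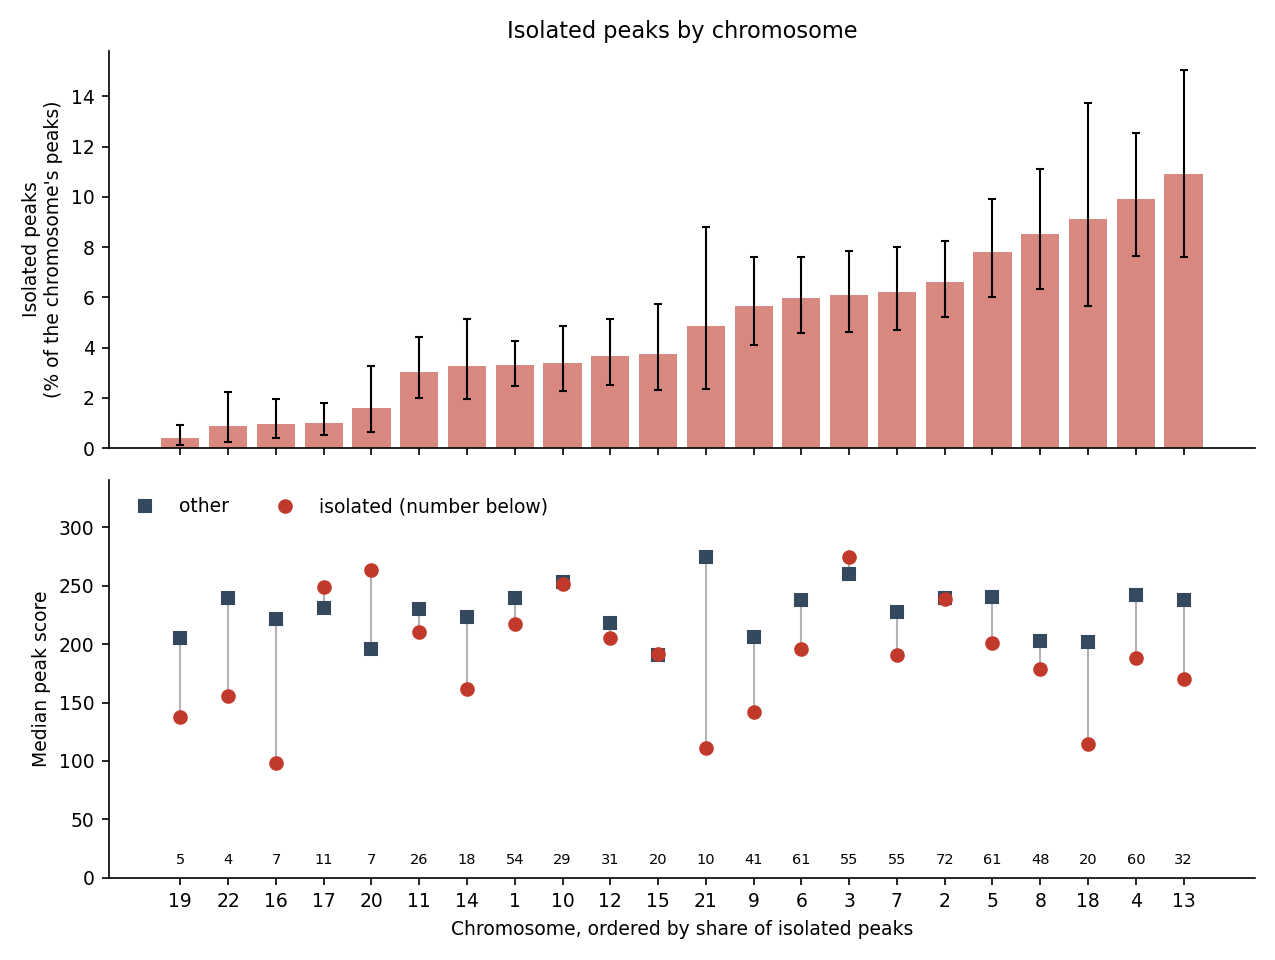
Share of each autosome's peaks that were isolated, in percent with exact 95% intervals (top), and the median peak score of isolated (red) and other (blue) peaks with the number of isolated peaks (bottom). Shares run from 0.397% on chromosome 19 to 10.9% on chromosome 13, and the red median is the lower on 18 of 22 chromosomes.

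Many isolated peaks were next to another isolated peak in the order of peaks. Of the 727, 336 had a non-isolated peak or a chromosome end on each side in this order. The other 391 (53.8%) stood in runs of 2 or more consecutive isolated peaks. Consecutive isolated peaks share a long gap, and single peaks were already 30.6% of the 2373 groups, so many runs arise from the rule. No share for a random order of groups was computed, so whether isolated peaks cluster was not tested. Runs of 4 or more numbered 18, on 11 chromosomes, and held 81 peaks. The median score was 197 for isolated peaks not in a run, 214 for those in runs of 2 or 3, and 154 for those in runs of 4 or more. Among the 18 longer runs, 12 had a median score below that of the other autosomal peaks.

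The longest run had 9 peaks, on chromosome 9 between 39464169 and 45729662, and ended at a gap of 20728 kb. Unassembled sequence was not masked, so how much of this gap could hold a peak is unknown. The peaks of the run were narrow and weak, with a median width of 615 bp and a median score of 111.47. Only chr9:45355724-45357347 stood out, with a score of 449.62 over 1624 bp, while the other 8 scored 53.31 to 138.95. A run of 4 on chromosome 9 between 17134588 and 18255548 was similar, with scores of 50.01 to 135.09 and a median width of 604.5 bp.

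Some other long runs held strong sites. On chromosome 2, 4 isolated peaks between 153573293 and 155554872 scored 1081.26, 735.01, 407.13 and 124.25 in order of position, with a median width of 2112 bp. On chromosome 7, 5 isolated peaks between 113724580 and 115851799 scored 905.89, 53.63, 275.89, 65.15 and 371.27. On chromosome 18, the first of 5 isolated peaks between 34408057 and 43169873 scored 745.95, and the other 4 scored 54 to 86. The run with the longest extent was on chromosome 5, where 4 peaks were spread over 10.3 Mb, from 17216119 to 27473430, with scores of 122.03 to 254.17. The other 10 runs of 4 or 5 peaks had median scores of 73.26 to 293.9. Some runs were thus weak throughout and some mixed strong and weak peaks. Others were neither, such as the run on chromosome 2 between 162930077 and 164593834, with scores of 196.57 to 382.38.

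Peaks of the DNA-binding mutant, called in a separate line over the same empty-vector cells, overlapped 1 isolated peak (0.138% of 727, 95% interval 0.00348 to 0.764). Among all autosomal peaks 10 were overlapped (0.0605%), and among the other class 9 (0.0570%, 0.0260 to 0.108). The intervals of the classes overlapped, the counts were small, and a difference between the classes was not tested. The overlapped isolated peak was the most isolated in the list, at chr13:67803641-67806111, and the mutant peak, at chr13:67804741-67805641, lay wholly inside it with a score of 54.53 and 901 shared bases. Without peaks next to a gap above 3 Mb no isolated peak was overlapped, since this peak has such gaps. Scores of the 2 lists were not compared with each other.

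Of the 35 autosomal mutant peaks, 12 (34.3%, 19.1 to 52.2) had an isolated peak as their nearest wild-type peak. On chromosome 13 this held for 10 of 14 mutant peaks, and on the other autosomes for 2 of 21. Only 4 isolated peaks were the nearest to these 12 mutant peaks. For 9 of the 12 the distance was more than 250 kb, so most lay in the empty stretch and not at the isolated site. The most isolated peak was the nearest for 5 of them, from overlap to 1655 kb away, and its isolated neighbour at chr13:61988752-61989693 (score 152.83) for 4, at 352 to 1981 kb. The isolated peak at chr13:84455937-84457067 was the nearest for 1, at 1085 kb. The 2 off chromosome 13 both had the strongest isolated peak, chr9:82184754-82189111, as their nearest wild-type peak. They lay at chr9:82228739-82229655 (score 54.72), 39.6 kb beyond its end, and at chr9:82517597-82518317 (score 50.72), 328 kb beyond it. An isolated peak has empty sequence around it by the rule, so these counts are a description. The share of sequence whose nearest peak is isolated was not computed, so the 34.3% has no reference value. The share of isolated peaks among all peaks is not such a reference. The interval treats mutant peaks as independent, although 10 of the 12 lay on chromosome 13 near few isolated peaks.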

How the data were processed

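Per the submitters' processing notes, reads were handled with Bowtie 0.12.7 and MACS 1.4.1 on hg19. The way replicates were combined is not stated. The deposited score of each peak is the authors' value; the lists do not state its scale, the reads behind it are unknown, and it grows with depth. It was compared only within the wild-type list, and scores of single mutant peaks are given as a description.

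Starts were converted from 0-based to 1-based. Gaps were counted in bp between neighbouring peaks of a chromosome, a missing neighbour counting as far. Both gaps had to exceed 250 kb. Mutant overlap needed at least 1 shared bp. Chromosome span ran from the first to the last autosomal peak. Intervals are exact Clopper-Pearson 95%. With 1 list per condition, no test was made.

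Regions were named by rule: the 10 isolated peaks of highest score, the 5 of lowest score, the 5 most isolated, the 3 widest and narrowest, those overlapping a mutant peak, the 2 on each side of the limit, and runs of 4 or more. The members and lists were chosen with earlier results of these data known. Chromosome groups and the distance ranges in steps of 50 kb were set after seeing the data, as were other regions named outside the rule. The gap rule was tested on simulated data. Alternatives covered distance, merging within 1 kb, a minimum score of 100, chromosome ends, large gaps, chromosome and width. Computation used pandas 2.3.3 and numpy 2.4.6 under Python 3.11.15, intervals SciPy 1.17.1 and plots matplotlib 3.10.9.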

Additional observations from a re-analysis of the deposited data

How the results depend on the processing

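No paired analysis was possible because there was 1 peak list for each construct, and no replicate could be left out. The number of isolated peaks was 2616 at a distance of 100 kb and 232 at 500 kb, and stayed between 672 and 813 under the other 4 alternatives. The direction of the score difference depended on the distance. The median score difference was 19.06 at 100 kb, where isolated peaks scored higher, and -50.16 at 500 kb. It was -39.73 after merging peaks within 1 kb, -24.98 with a minimum score of 100 applied first, -30.44 without the first and last peak of each chromosome and -24.95 without peaks next to a gap above 3 Mb. As a median of differences it was -38 within chromosomes and -15.68 within width deciles. The median width difference had no stable direction. It was 65.5 bp at 100 kb, 4 bp without peaks next to a gap above 3 Mb, -50 bp at 500 kb, -12 bp after merging, -4 bp at a minimum score of 100 and -29.5 bp within chromosomes. With 2 alternatives chosen after seeing the data, leaving out other peaks with a neighbour within 1 kb gave -46.6 in score and -32 bp in width, and leaving out the run of 9 on chromosome 9 gave -29.3 and 0.5 bp. The overlap with mutant peaks was 1 isolated peak under 5 alternatives and 0 without peaks next to a gap above 3 Mb, since that peak has such gaps. Which peaks count as isolated depends on what else was called, and so on depth, which is unknown.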
